A study of Rattus norvegicus with 6 samples.

Results

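The p53-linked miR-34 family, with its relative miR-449a, was followed in the rat trigeminal ganglion, the cluster of sensory neuron cell bodies that serves the face, after injury of a branch of its nerve. Members were all rows of the deposited count table named for miR-34a, miR-34b, miR-34c, miR-449a or miR-449c, on either strand of the hairpin. This name rule, which used no measured value, found 7 of 650 mature miRNAs: both strands of miR-34a, miR-34b and miR-34c, and miR-449a-5p. The table holds 0 rows for miR-449c.

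A miRNA is cut as a short duplex from a hairpin in a longer transcript. One strand is then usually kept in the silencing complex and pairs with messenger RNAs mainly through its seed, bases 2 to 8 from the 5′ end. The miR-34 genes are direct transcriptional targets of the tumour suppressor p53, and miR-34a is known to repress genes of cell cycle entry and survival, such as Bcl2, Sirt1 and Notch1. miR-34a is broadly expressed, with high levels in brain, whereas miR-34b, miR-34c and the cluster of miR-449a are best known from multiciliated epithelia and testis, where they promote the formation of motile cilia.

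The ganglia were ipsilateral to surgery, from Sprague-Dawley rats of 8 to 10 weeks, and were taken on day 14. In 3 libraries the left infraorbital nerve had been tied loosely with silk, a chronic constriction injury (CCI-ION) used as a model of neuropathic pain, and in 3 the nerve had only been exposed (sham). Whether each library came from a separate animal is not stated, so the p-values speak only of the variation among these 6, part of which may be technical. The infraorbital nerve is 1 branch of the trigeminal nerve, so such a ganglion holds injured and uninjured neurons together, and in bulk RNA fewer cells of a type and less RNA per cell cannot be told apart. The libraries held between 6420434 and 12560545 miRNA counts. The miRNAs of the sensory neuron cluster (miR-183, miR-96 and miR-182) served as markers of the labelled tissue and summed to between 34690 and 45630 CPM, that is, counts scaled to a common library size. The sample titles number the libraries in each group but do not say what a number shares. A pair of libraries below means 2 libraries of the same number, not a stated pairing of animals. Libraries with the same number in the 2 groups deviated from their group means together, and the libraries numbered 1 were the most deeply sequenced. Results are therefore given from a fit of group alone and, where it changes the call, from a fit with the library number as a block. The block was adopted from these same data, not from a stated design.

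The mature sequences are shown first because the members fall into groups by seed, given in capitals, and because miR-34b-5p and miR-34c-5p are close enough in sequence for reads to be assigned to either. Each of the 7 deposited sequences was identical to the RefSeq entry of the same name. The prefix rno, for rat, is dropped after the sequences. The 4 strands from the 5′ side of the hairpins share the seed GGCAGUG, which 4 of 650 miRNAs in the table carry, all of them members.
rno-miR-34a-5p: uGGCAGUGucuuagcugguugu
rno-miR-34b-5p: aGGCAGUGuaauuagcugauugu
rno-miR-34c-5p: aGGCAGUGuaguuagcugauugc
rno-miR-449a-5p: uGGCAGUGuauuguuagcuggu
The strands from the 3′ side have other seeds. The seed AUCACUA is shared by miR-34b-3p and miR-34c-3p and by no other miRNA of the table, and AUCAGCA occurs in miR-34a-3p alone.
rno-miR-34a-3p: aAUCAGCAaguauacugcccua
rno-miR-34b-3p: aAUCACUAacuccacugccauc
rno-miR-34c-3p: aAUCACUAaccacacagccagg
Counted from the 5′ end, miR-34b-5p and miR-34c-5p differ over 23 bases at 2 positions, A11G and U23C. Their separate counts are uncertain, since no source used here says how the authors assigned reads that match both. No other miRNA of the table lies within 2 bases of a member.

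The members come from 3 loci. In the RefSeq annotation of the build GRCr8, which is not the build rn6 of the deposited files, Mir34a (chr5:165815952-165816053, plus strand) lies within the long non-coding RNA gene LOC103692514. Mir34c (chr8:60306091-60306167) and Mir34b (chr8:60306609-60306692) lie on the minus strand with 441 bases between their hairpins, overlap the protein-coding gene Hoatz and neighbour Btg4. Mir449a (chr2:46403910-46404000, plus strand) lies within the long non-coding RNA gene LOC134485839, and its neighbours include Mcidas and Ccno, which direct the differentiation of multiciliated cells. Whether each hairpin is exonic or intronic was not analysed here. The 3 miR-34 hairpins are given with both mature strands in capitals, because the share of the 2 strands is compared between hairpins further on.
Mir34a: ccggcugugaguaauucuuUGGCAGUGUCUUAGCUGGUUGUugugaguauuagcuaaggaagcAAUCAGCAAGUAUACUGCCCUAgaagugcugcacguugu
Mir34b: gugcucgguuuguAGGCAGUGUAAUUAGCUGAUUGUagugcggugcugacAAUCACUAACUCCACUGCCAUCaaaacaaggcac
Mir34c: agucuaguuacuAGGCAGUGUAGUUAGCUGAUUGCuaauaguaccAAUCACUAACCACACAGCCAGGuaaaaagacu

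miR-34a-5p was the most abundant member of the family in the ganglion, ahead of miR-34c-5p and miR-34b-5p. Levels are CPM scaled by the trimmed mean of M-values (TMM), and mature strands of 22 or 23 bases were compared without a length correction. Over the 6 libraries miR-34a-5p averaged 412 CPM and ranked 107 of 463 tested miRNAs by mean level. miR-34c-5p followed at 105.6 CPM (76.7 to 128), miR-34b-5p at 22.1 CPM (14.8 to 31.5) and miR-34b-3p at 5.4 CPM (4.83 to 5.90). The ranges of these 4 did not overlap, and their order was the same in 6 of 6 libraries. The next, miR-34c-3p, averaged 3.33 CPM and was below miR-34b-3p in 6 of 6 libraries, although the ranges of the pair overlapped. miR-449a-5p averaged 2.11 CPM and miR-34a-3p 0.709 CPM. Each was below its neighbour in 5 of 6 libraries, with overlapping ranges, so the order of the lowest 3 does not hold beyond their spread. Counts of different miRNAs also depend on how well each is ligated and amplified, so these levels rank reads rather than molecules.

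**Figure D1:**
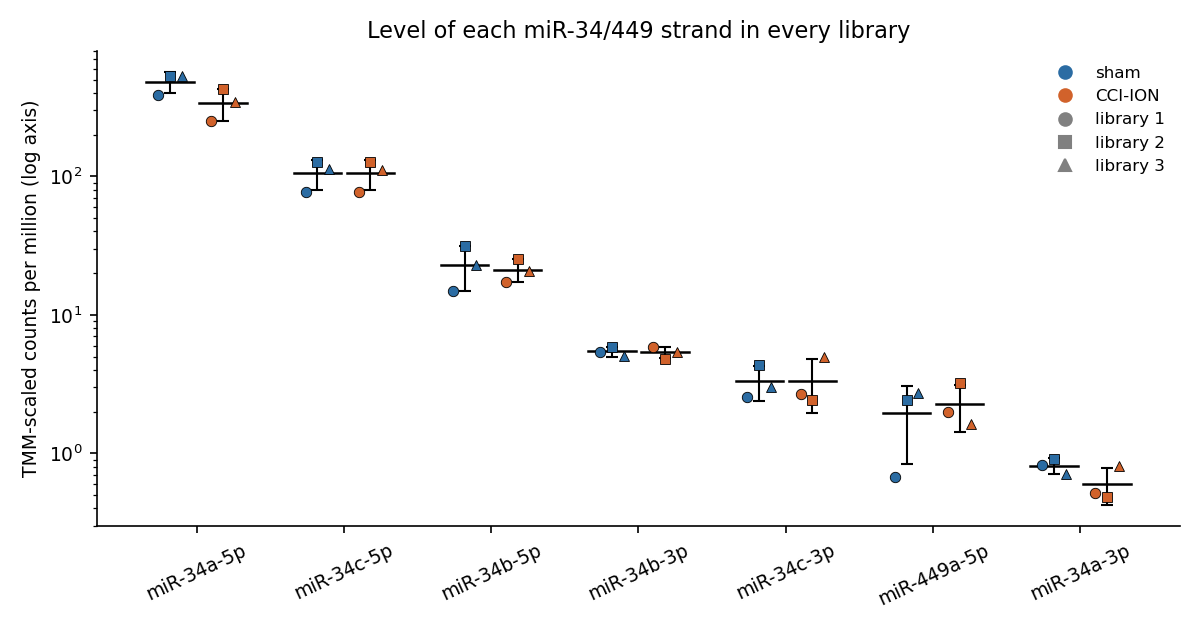
TMM-scaled CPM (log axis) of the 7 strands in every library, sham in blue and CCI-ION in orange, with the library number as marker shape, the group mean as a line and the SD as a bar (n = 3 per group). miR-34a-5p lies lower in CCI-ION within each pair of libraries of the same number, while miR-34c-5p takes nearly the same value in both libraries of a pair.

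For miR-34a-5p, the p53-induced repressor of cell cycle and survival genes, sham libraries 1 to 3 held 389, 533 and 527 CPM. CCI-ION libraries 1 to 3 held 249.9, 428 and 343 CPM. CCI-ION was the lower library in 3 of 3 pairs, as it was for 23.5% of all tested miRNAs, but the groups overlapped, because sham library 1 lay below CCI-ION library 2. In both groups library 1 was the lowest. The sham mean was 483 ± 81.5 CPM and the CCI-ION mean 340.2 ± 88.9 CPM (SD, n = 3 each). In the 3 pairs the CCI-ION level was 0.643, 0.802 and 0.651 times the sham level.

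Group alone gave a log2 fold change of -0.51 ± 0.23 (SE) for miR-34a-5p, which did not pass (edgeR adjusted p = 0.496, unadjusted p = 0.0639). In that fit 0 of 6 tested members were called and 0 had an unadjusted p under 0.05, against 0.648% of all 463 tested miRNAs called, 0.432% of them as lower. DESeq2 and limma-voom also called 0 members. With the block miR-34a-5p fell (log2 fold change -0.53 ± 0.11, edgeR adjusted p = 0.000204). DESeq2 with the block gave an adjusted p of 0.00023 and limma-voom 0.0192. It was the only one of 6 tested members called with the block by any of the 3 tools, where edgeR called 11.7% of all tested miRNAs, 5.62% as lower and 6.05% as higher. The count of 1 of 6 is close to that background. Leaving out both libraries numbered 3 ended the call (edgeR log2 fold change -0.48 ± 0.16, adjusted p = 0.211), whereas leaving out those numbered 1 (-0.47, adjusted p = 0.0265) or 2 (-0.62, adjusted p = 0.0156) did not.

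Among all 463 tested miRNAs, the log2 fold change of miR-34a-5p was the 27th lowest in either fit. It was the 26th lowest on the scale of the deposited RPM, which divides counts by a larger total per library. What that total holds besides miRNA counts is not stated in the labels. The miRNA counts made up 52.3% to 66.6% of these totals in sham and 45.4% to 55.8% in CCI-ION, and on that scale the median of all tested miRNAs was itself -0.34. There miR-34a-5p stood at 215.5, 344 and 347 RPM in sham and 119.5, 189.7 and 185 RPM in CCI-ION, and the groups did not overlap. That was so for 30.5% of tested miRNAs on the RPM scale, 29.4% with CCI-ION below sham, and it was so for 3 of the 7 members, miR-34a-5p, miR-34a-3p and miR-34b-3p. In TMM-scaled CPM the groups did not overlap for 13.8% of tested miRNAs, 7.13% with CCI-ION below sham, and for 0 of the 7 members. The log2 fold change of miR-34a-5p on the RPM scale was -0.87 ± 0.27 with group alone (edgeR adjusted p = 0.151) and -0.87 ± 0.16 with the block (edgeR adjusted p = 5.3e-05).

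miR-34c-5p, which has the same seed but comes from another locus, had nearly equal levels in the groups. It was at 76.8, 128 and 113 CPM in sham libraries 1 to 3 and 76.7, 128 and 111 CPM in CCI-ION libraries 1 to 3. The groups overlapped fully, and the pairs differed from each other far more than the 2 libraries within a pair, whose CCI-ION to sham ratios were 0.999, 0.999 and 0.98. The log2 fold change was -0.01 ± 0.26 with group alone and -0.01 ± 0.12 with the block (edgeR adjusted p = 0.993 and 0.978). On the RPM scale it was -0.38 ± 0.29, close to the median of all tested miRNAs on that scale.

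miR-34b-5p, from the neighbouring hairpin, was at 14.8, 31.5 and 23.0 CPM in the sham libraries and at 17.3, 25.4 and 20.9 CPM after injury. These ranges overlapped, and the log2 fold change was -0.12 ± 0.29 (edgeR adjusted p = 0.947). The partner strand miR-34b-3p had 5.41, 5.90 and 5.02 CPM in sham and 5.86, 4.83 and 5.38 CPM in CCI-ION, resting on 30 to 72 counts per library. It did not differ beyond the spread (-0.02 ± 0.22, edgeR adjusted p = 0.993). miR-34c-3p, with 15 to 43 counts per library, was at 2.55, 4.38 and 3.01 CPM in sham and 2.67, 2.41 and 4.98 CPM in CCI-ION. It gave 0.02 ± 0.37 (edgeR adjusted p = 0.993), an estimate that spans a change of the size seen for miR-34a-5p in both directions within 2 SE. The sign of these small values turned with the scaling or with the library left out.

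**Figure D2:**
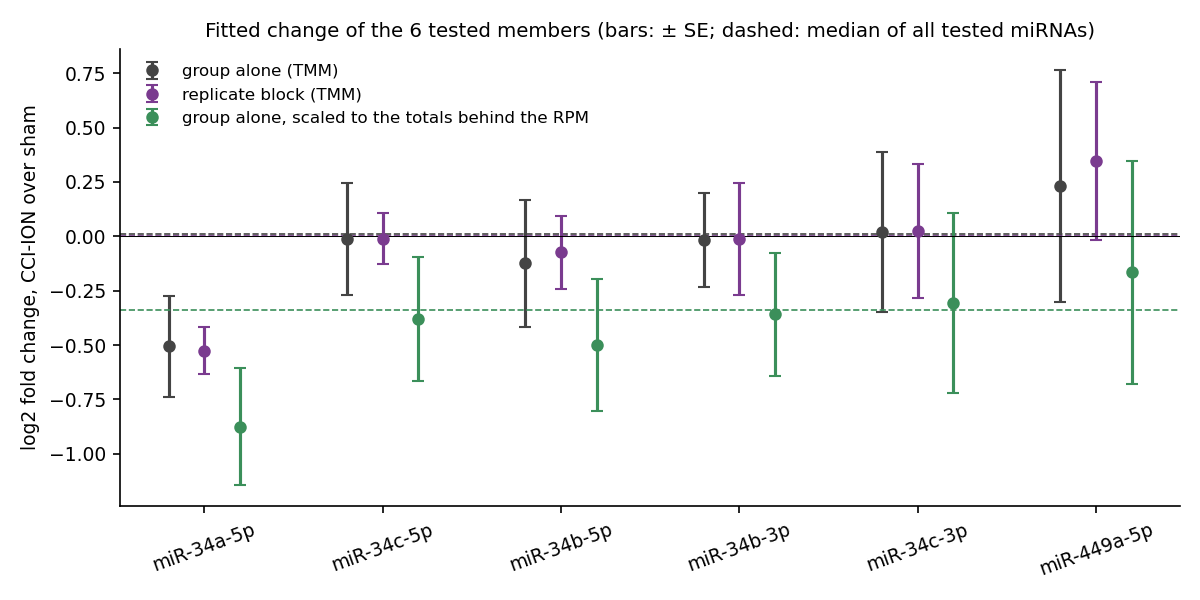
Fitted log2 fold change of CCI-ION over sham for the 6 tested members, with SE bars, from group alone and the replicate block (both TMM) and from group alone on the RPM scale. Dashed lines mark the median of all tested miRNAs in each fit: miR-34a-5p lies below it in all 3, and the bars of the other members reach it.

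The 2 lowest members gave little information. miR-449a-5p, of the cluster linked to motile cilia, had 9 to 27 counts per library, or 0.676, 2.44 and 2.71 CPM in sham and 1.98, 3.22 and 1.61 CPM in CCI-ION. Its lowest value was in sham library 1, the groups overlapped, and the log2 fold change was 0.23 ± 0.53 (edgeR adjusted p = 0.947). miR-34a-3p, the strand that is mostly discarded from the miR-34a hairpin, had 11, 9 and 7 counts in sham and 6, 3 and 6 in CCI-ION. It failed the filter on low counts and was not tested. Its values were 0.826, 0.916 and 0.703 CPM in sham and 0.517, 0.483 and 0.807 CPM in CCI-ION, lower in CCI-ION in 2 of 3 pairs, with overlapping groups.

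Ratios between members within a library do not depend on how libraries are scaled. The share of miR-34a-5p among strands with its seed was lower in every CCI-ION library than in every sham library. miR-34c-5p counts were 0.198, 0.24 and 0.215 times the miR-34a-5p counts in sham libraries 1 to 3, and 0.307, 0.299 and 0.323 times in CCI-ION libraries 1 to 3. Every CCI-ION library lay above every sham library, and within each group the values were close together although the levels themselves varied. The ratio was 1.43 times higher in CCI-ION, a log2 difference of 0.51 between group means of -2.21 ± 0.14 in sham and -1.69 ± 0.06 in CCI-ION (SD, n = 3 each). The two-sided exact permutation p was 0.1, the smallest that 3 against 3 libraries allow, and 0.2 after Benjamini-Hochberg adjustment over the 2 ratios tested. An exact sign-flip test within the 3 pairs gave 0.25, also the smallest possible. The ratio was chosen with earlier results of these data known, so these p-values are no independent support for it. Leaving out single libraries moved the difference between 0.45 and 0.59.

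The ratio of miR-34b-5p to miR-34a-5p has the same denominator, so it is no separate observation. How many miRNAs outside the family also separate the groups when divided by miR-34a-5p was not examined. The miR-34b-5p ratio was 0.0381, 0.0590 and 0.0436 in sham and 0.0693, 0.0594 and 0.0608 in CCI-ION. The groups did not overlap, though sham library 2 and CCI-ION library 2 were nearly equal. This ratio was added later, after the deposited values had been examined, as was that of miR-34b-5p and miR-34c-5p summed, which avoids the uncertain assignment of reads between them and gave a log2 difference of 0.50. The ratio of the scarce miR-449a-5p to miR-34a-5p overlapped between groups, at 0.00174, 0.00459 and 0.00514 in sham and 0.00793, 0.00752 and 0.0047 in CCI-ION. The ratio of the neighbours miR-34b-5p and miR-34c-5p was 0.193, 0.246 and 0.203 in sham and 0.226, 0.199 and 0.188 in CCI-ION, with overlapping groups. As a share of all counts with the seed GGCAGUG, miR-34a-5p held 78.9% ± 2.06 in sham and 72.5% ± 0.648 in CCI-ION (SD, n = 3 each). miR-34c-5p held 17.1% ± 1.22 and 22.4% ± 0.743, and neither pair of groups overlapped. Summed over these 4 strands, the seed had 481, 695 and 666 CPM in sham and 346, 584 and 477 CPM in CCI-ION, with overlapping groups.

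**Figure D3:**
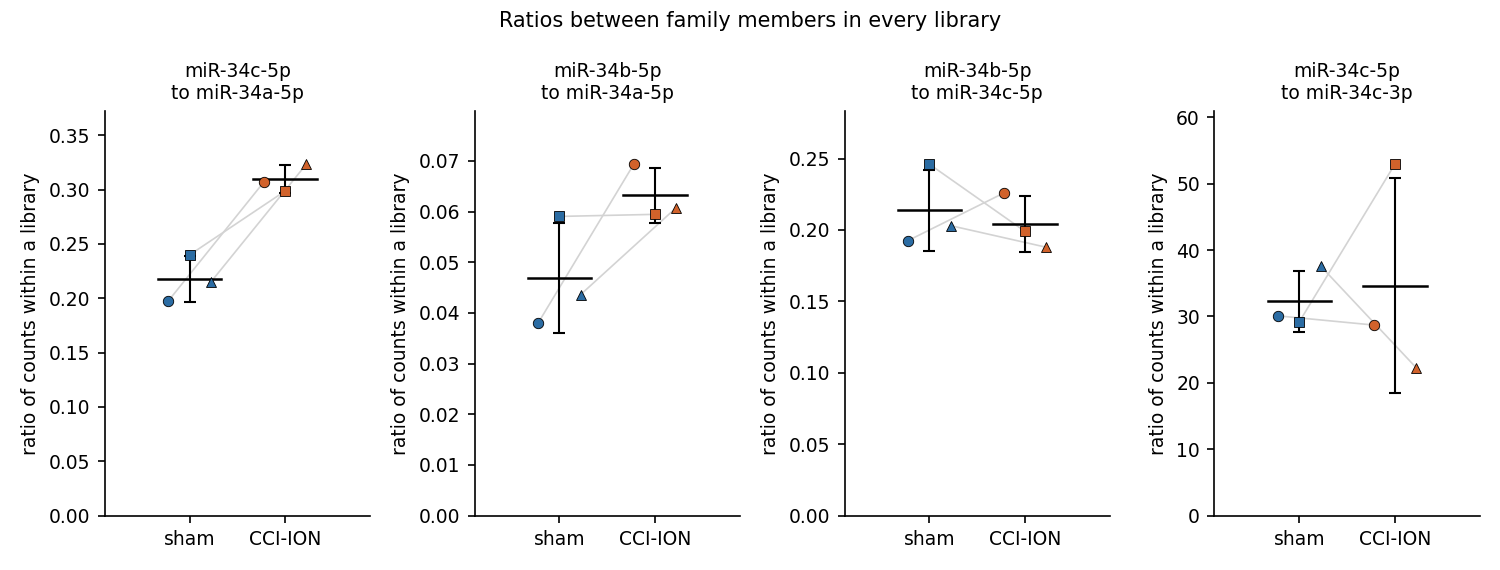
Ratios of counts between 2 members within each library, with the library number as marker shape, grey lines joining libraries of the same number, and the group mean and SD in black (n = 3 per group). The ratios of miR-34c-5p and miR-34b-5p to miR-34a-5p lie higher in every CCI-ION library than in every sham library, while the ratio of miR-34b-5p to miR-34c-5p and that of the 2 strands of miR-34c overlap.

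Strand use varied by hairpin, and the groups overlapped for all 3 hairpins. The 5p strand made up 99.8% ± 0.0394 of miR-34a counts in sham and 99.8% ± 0.0638 in CCI-ION (SD, n = 3 each). For miR-34c it was 97.0% ± 0.391 and 96.8% ± 1.23. For miR-34b it was 79.8% ± 5.82 and 79.4% ± 4.66, the lowest share of the 3 hairpins, and it varied between pairs, with 73.2% and 74.7% in the libraries numbered 1 and 79.5% to 84.2% in the others. The tested ratio of miR-34c-5p to miR-34c-3p was 30.1, 29.2 and 37.6 in sham and 28.7, 52.9 and 22.3 in CCI-ION. Its group means differed by 0.003 on the log2 scale (two-sided exact permutation p = 1), with an SD of 0.20 in sham and 0.63 in CCI-ION.

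Other miRNAs tied to p53 were taken from 3 lists. The first holds miRNAs whose transcription or processing p53 is known to promote, and 14 of them were in the table and 12 were tested. With the block 1 of 12 was lower and 0 were higher, where edgeR called 5.62% of all tested miRNAs lower and 6.05% higher, so the count is close to the background. The median log2 fold change was -0.03, against 0.00 over all tested miRNAs. The 1 called was miR-215, which is induced by p53 together with miR-192 and miR-194. It was at 4.51, 5.19 and 11.8 CPM in the sham libraries and at 0.948, 3.06 and 2.29 CPM after injury, with 11 to 118 counts per library. The groups did not overlap, and sham library 3 was the highest. With the block miR-215 fell (log2 fold change -1.80 ± 0.32, edgeR adjusted p = 2.85e-05, DESeq2 0.00309, limma-voom 0.0223), which it did not with group alone (edgeR adjusted p = 0.316). Leaving out the libraries numbered 3 left 0 of the list called by edgeR with the block, when 5 of all 466 tested were called. On the RPM scale 4 of 12 were lower with the block, the same share as among all tested miRNAs, of which 32.8% were called lower there.

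The relatives of miR-215 were not called in either fit. miR-192-5p averaged 364 ± 29.4 CPM in the sham group against 373 ± 43.9 CPM after injury (SD, n = 3 each), with a log2 fold change of 0.04 (edgeR adjusted p = 0.98). miR-194-5p averaged 135 ± 8.83 against 137 ± 24.4 CPM. The most abundant members of the list were miR-143-3p, a miRNA of smooth muscle whose processing p53 enhances, and miR-22-3p. miR-143-3p stood at 23200 ± 4685 and 22850 ± 6993 CPM, and miR-22-3p at 2844 ± 87.1 and 2830 ± 139 CPM. Neither was called in either fit.

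Opposite to these, p53 is known to repress the miR-17-92 cluster, which promotes proliferation. All 6 of its listed strands were tested, and with the block 1 of 6 was higher and 0 were lower, against 6.05% higher and 5.62% lower of all tested miRNAs. That count is close to the background. The list median was 0.43 with the block, against 0.00 over all tested miRNAs, and 0.44 with group alone. It was 0.26 with group alone without sham library 1, and 0.23 with the block when both libraries numbered 2 were left out, which left 0 called. miR-20a-5p was at 71.8, 111 and 105 CPM in the sham libraries and at 108, 158 and 137 CPM after injury, higher in each pair with overlapping groups. With the block it rose (log2 fold change 0.49 ± 0.12, edgeR adjusted p = 0.00134, DESeq2 0.00137, limma-voom 0.0223). Its count is uncertain, since miR-17-5p and miR-20b-5p lie within 2 bases of its sequence. miR-17-5p itself, the most abundant strand of the list, had 134 ± 12.8 and 152 ± 18.7 CPM and was not called. miR-92a-3p, the 1 strand of the 6 with a negative value, had 37.1 ± 6.18 and 36.3 ± 5.23 CPM. Its log2 fold change with the block was -0.03 (edgeR adjusted p = 0.93), so the list did not shift as a whole. miR-20a-5p was also not called with the block once the libraries numbered 3 were left out. On the RPM scale the median of the list was 0.08, where that of all tested miRNAs was -0.34.

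The last list holds miRNAs known to target the p53 messenger RNA or its regulators. With the block edgeR, DESeq2 and limma-voom called 0 of 7, and 0 had an unadjusted p under 0.05 in either edgeR fit. The median was -0.04 with the block. miR-125b-5p, a repressor of p53, averaged 19270 ± 1931 CPM in the sham group against 19080 ± 2924 CPM after injury, and miR-30d-5p 8444 ± 901 against 8261 ± 1216 CPM (SD, n = 3 each). With group alone edgeR called 0 members of the 3 lists, and 1 of their 25 tested members, miR-215, had an unadjusted p under 0.05.

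**Figure D4:**
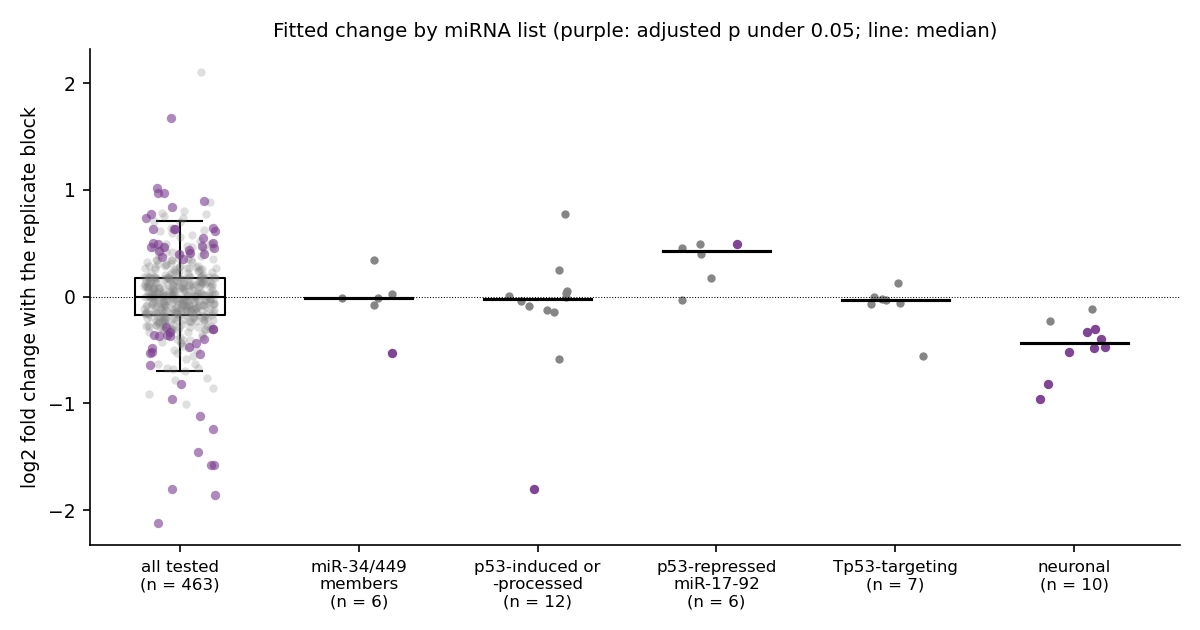
Log2 fold change with the replicate block for all 463 tested miRNAs (with a box of median and quartiles) and for the members, the 3 p53 lists and neuronal miRNAs, with lines at list medians and called miRNAs in purple. The members and 2 of the p53 lists centre near 0, the miR-17-92 list centres at 0.43, and the neuronal list at -0.43.

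Values for markers of cell types were set beside that of miR-34a-5p. The sensory neuron markers miR-182, miR-183-5p and miR-96-5p had log2 fold changes of 0.09, -0.15 and -0.18, and edgeR called 0 of the 3 in either fit, with 0 at an unadjusted p under 0.05; DESeq2 and limma-voom also called 0. All 10 miRNAs of a general neuronal list had negative values, and the list median was -0.43 in both fits. edgeR called 8 of 10 lower with the block (DESeq2 6 and limma-voom 5), and with the block 0 when the libraries numbered 3 were left out. With group alone edgeR and limma-voom called 0 of the 10 and DESeq2 1. In that edgeR fit 5 of the 10 had an unadjusted p under 0.05, as had 46 of all 463 tested miRNAs. Summed, the 10 neuronal miRNAs ranged from 24370 to 28930 CPM in sham and from 19380 to 24630 in CCI-ION. The largest part was miR-9a-5p, which was not called, at 13120 ± 1893 CPM in sham and 12240 ± 2591 CPM in CCI-ION. Muscle markers also had negative values in 6 of 6, with a median of -0.49, 2 called lower with the block, and sums of 5605 to 11310 CPM in sham and 3684 to 9054 in CCI-ION. Most of these muscle sums was miR-1b, at 8386 ± 2939 CPM in sham and 5905 ± 2511 CPM in CCI-ION. Leukocyte markers had positive values in 7 of 7, with a median of 0.40, 4 called higher with the block, and sums of 2399 to 2584 CPM in sham and 3147 to 3410 in CCI-ION. Most of these leukocyte sums was miR-146a-5p alone, at 2190 ± 101 CPM in sham and 2889 ± 135 CPM in CCI-ION. With group alone edgeR called 0 muscle and 0 leukocyte markers, of which 1 and 3 had an unadjusted p under 0.05. With the block it called 0 of both without the libraries numbered 3, and 1 leukocyte marker without those numbered 2. Of all tested miRNAs the block called 6.05% higher and 5.62% lower. On the RPM scale with the block, edgeR called 10 of 10 neuronal, 2 of 3 sensory neuron and 4 of 6 muscle markers lower. There 0 leukocyte markers were called in either direction, and 32.8% of all tested miRNAs were called lower. The leukocyte median on that scale was 0.14, where that of all tested miRNAs was -0.35. Glial markers had negative values in 3 of 6 and a median of 0.03. In both fits 1 of 6 was called higher, miR-219a-1-3p, at 4.77 ± 1.08 CPM in the sham group against 15.2 ± 2.08 CPM after injury (log2 fold change 1.66, edgeR adjusted p = 0.0239 with group alone and 3.81e-08 with the block). Epithelial markers had a median of 0.01 and 1 of 8 called higher with the block, miR-205 (56.6 ± 0.467 against 88.3 ± 9.29 CPM, edgeR adjusted p = 0.000101 with the block and 0.156 with group alone), which was lost without the libraries numbered 3. No marker of these lists was at 0 in all libraries, and their part in the level of miR-34a-5p was not tested. The called markers were not searched for other miRNAs within 2 bases of their sequences, so their separate counts may be uncertain.

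Across the 6 libraries the pattern of miR-34a-5p in log2 CPM was most like those of miR-376b-5p (Pearson r = 0.982), miR-136-3p (0.966) and miR-29c-3p (0.963). Without the 2 libraries farthest from the median of miR-34a-5p, r over the remaining 4 was 0.928, 0.931 and 0.902. These 3 were picked over the same 6 libraries, so negative log2 fold changes like that of miR-34a-5p largely follow from the choice. With the block these were -0.37, -0.44 and -0.43. There edgeR called miR-376b-5p and miR-136-3p (adjusted p = 0.0425 and 0.00306) but not miR-29c-3p (0.0669). DESeq2 and limma-voom with the block called miR-136-3p alone of these 3. miR-376b-5p and miR-29c-3p have near copies in the table (miR-376c-5p and miR-29a-3p) and are uncertain. The pattern of miR-34c-5p was most like those of miR-335 (0.995), miR-532-5p (0.994) and miR-200b-3p (0.986), none of which was called. miR-200b-3p also has a near copy (miR-200c-3p) and is uncertain. For these 3, r without the 2 farthest libraries was 0.929, 0.935 and 0.742. The libraries numbered 1, lowest in miR-34c-5p in both groups, were also the deepest. Between members, r over the 6 libraries was 0.924 for miR-34b-5p with miR-34c-5p, whose separate counts are uncertain, and 0.703 for miR-34a-5p with miR-34c-5p. For the scarce miR-449a-5p, from another locus, r was 0.782 with miR-34b-5p and 0.728 with miR-34c-5p. The 2 strands of miR-34b had an r of -0.072 and those of miR-34c 0.427, with few counts on the 3p strands. These values did not order by locus.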

How the data were processed

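The authors deposited raw counts for 650 mature miRNAs and RPM values for each of 6 libraries. The submitters' processing notes name cutadapt 1.14, Bowtie 1.1.1 and the build rn6; no source used here names the read counter. The deposited RPM equal the counts times 1 constant per library, and whole reads were recovered from 100% of RPM values within 0.01 read, so a count test on them is the test on the deposited counts. Library totals gave a floor of 3 counts at 0.239 to 0.467 CPM, for counting error only. How small RNA was selected is not stated in the labels.

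Counts were tested with edgeR 4.0.16 (TMM, filterByExpr, robust quasi-likelihood F test, Benjamini-Hochberg adjusted p under 0.05 over 463 tested miRNAs, 187 left out) in R 4.3.3. SE is the log2 fold change divided by the square root of F. DESeq2 1.42.0 and limma-voom 3.58.1 were alternatives. The fit was tested on simulated data. Same-numbered libraries correlated in their deviations from group means at 0.664, 0.591 and 0.457, so the number was used as a block beside the fit of group alone. The numbers come from the sample titles, which do not say what a number shares. Ratios used a pseudocount of 0.5 and an exact permutation test (scipy 1.17.1). Named miRNAs are all members, the 3 most correlated with miR-34a-5p and with the next most abundant member, and the called and the 2 most abundant miRNAs of each p53 list. miR-192-5p, miR-194-5p, miR-92a-3p and the named cell type markers were added after their values were seen. Members, lists and ratios were chosen with earlier results of these data known. Alternatives covered scaling, filter, tool, block and libraries left out.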

Additional observations from a re-analysis of the deposited data

How the results depend on the processing

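miR-34a-5p kept its negative sign in all 22 alternatives, from -0.87 (on the scale of the RPM totals) to -0.33 (without CCI-ION library 1), and was called only with the replicate block, in 6 of the 7 alternatives that hold it: -0.53 (edgeR), -0.52 (DESeq2), -0.53 (limma-voom), -0.47 without the libraries numbered 1, -0.62 without those numbered 2, and -0.87 on the RPM scale. The difference in the ratio of miR-34c-5p to miR-34a-5p kept its sign in all 11 alternatives (0.45 to 0.59), and that in the family's share of counts in all 7. That share was 0.05194%, 0.06841% and 0.06665% of miRNA counts in the sham libraries and 0.03739%, 0.05729% and 0.04713% in the CCI-ION libraries. The groups overlapped, and most of the share was miR-34a-5p. The other members were not called in any alternative and some changed sign. Leaving out single libraries with group alone gave -0.092 to 0.060 for miR-34b-3p, -0.37 to 0.16 for miR-34b-5p, -0.35 to 0.26 for miR-34c-3p, -0.20 to 0.17 for miR-34c-5p, -0.20 to 0.56 for miR-449a-5p and -0.34 to 0.27 for the ratio of the miR-34c strands, which was -0.022 with a pseudocount of 2. With upper quartile factors miR-34b-3p was 0.084 and miR-34c-5p 0.078. On the RPM scale, miR-34c-3p was -0.31 (-0.32 with the block) and miR-449a-5p -0.17 (-0.0075 with the block). miR-34c-3p was -0.0095 without the filter and -0.0067 with limma-voom. With the replicate block, miR-449a-5p was -0.13 without the libraries numbered 1, miR-34b-3p 0.12 and miR-34b-5p 0.054 without those numbered 2, and miR-34c-3p -0.37 without those numbered 3. With group alone, chosen after seeing the data, the same omissions gave -0.12 for miR-449a-5p, 0.12 for miR-34b-3p, 0.028 for miR-34b-5p and -0.44 for miR-34c-3p.

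Over all miRNAs edgeR called 3 with group alone, 54 with the replicate block, 45, 31 and 5 with the block when the libraries numbered 1, 2 and 3 were left out in turn, 6 on the RPM scale (158 with the block, 6 higher and 152 lower), 6 without the filter and 1 to 7 without single libraries. DESeq2 called 9 (44 with the block) and limma-voom with the block 39. With group alone edgeR called 12 without the libraries numbered 1, and 0 without those numbered 2 or 3, where 27 and 11 had an unadjusted p under 0.05. The cause of these differences was not tested. The block changed the call of no other member. With 3 to 43 counts per library, miR-34a-3p, miR-34c-3p and miR-449a-5p are limited by depth.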
